A study of Mus musculus with 16 samples.

Results

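The 6 genes described here, *Slc2a2*, *G6pc2*, *Abcc8*, *Ucn3*, *Trpm5* and *Prlr*, carry the glucose-sensing machinery and the mature state of the pancreatic beta cell. They were chosen by name, by matching the identifiers of the 52636 genes in the count table to these symbols, and all 6 were found and passed the filter on low counts. RNA was sequenced from islets, the endocrine cell clusters of the pancreas, of male C57BL/6JRj mice aged 12 weeks according to the labels, whereas the methods of the study name C57BL/6NRj. Islets were cultured for 10 days under 4 conditions, with a change of medium at day 5: left unexposed (control), with recombinant mouse IL-1β, a pro-inflammatory cytokine, at 50 pg/ml, with sodium butyrate, a short-chain fatty acid that gut bacteria make, at 0.2 mM, or with both at the same doses (the combination). All 4 conditions shared an RPMI medium with 2% human serum and antibiotics. Each of the 16 libraries, 4 per condition, came from 500 islets, and islets were isolated from several mice, so that the labelled replicates do not stand for single mice. The study describes 4 independent experiments, but the labels do not say which libraries shared one. A library had from 18635943 to 25955943 counts. Levels are given as CPM, the counts of a gene per 1000000 counts of its library after TMM scaling, which sets the libraries to a common scale. Means are given ± SD with n = 4.

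Beta cells take up glucose through GLUT2, the transporter encoded by *Slc2a2*, and the glucose is then turned into glucose 6-phosphate. The enzyme encoded by *G6pc2*, a glucose 6-phosphatase catalytic subunit of islets, works against that step. The ATP made from glucose closes the KATP channel, built of the sulfonylurea receptor SUR1 (*Abcc8*) and the pore subunit Kir6.2 (*Kcnj11*), and the cell then depolarizes and lets in calcium. TRPM5 (*Trpm5*) is a calcium-activated cation channel that adds to this depolarization. Urocortin 3 (*Ucn3*) is a peptide that appears late in the maturation of mouse beta cells, is released with insulin and acts on CRHR2 of neighbouring delta cells. The prolactin receptor (*Prlr*) signals through JAK2 and STAT5 and is known for the growth of beta cell mass in pregnancy.

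The bases just before an annotated start of these genes are shown as a description, and their part in the responses to IL-1β was not tested. The sequences are the 250 bases upstream of a start in RefSeq (GRCm38.p6), read on the strand of the gene, 5′ to 3′, and 5 of the 6 genes had an entry, *G6pc2* and *Prlr* with more than one start. For *G6pc2* and *Prlr* the window with matches is printed, out of 2 and 3 windows. These 2 printed windows belong to starts that lie inside the annotated gene. Capitals mark exact matches, on either strand, to TGCTGAC (a MAFA half-site with its flank), CATCTG (an E-box of the NEUROD1 type) or TTCNNNGAA (a STAT site). Searches for TAATTA, the core letters of many homeodomain sites, and for GTTAAT, one side of an HNF1 site, found no match in any window of these genes. The same held for GGGANTTTC, the core of an NF-κB site, and for TATAAA, the TATA box.
Slc2a2: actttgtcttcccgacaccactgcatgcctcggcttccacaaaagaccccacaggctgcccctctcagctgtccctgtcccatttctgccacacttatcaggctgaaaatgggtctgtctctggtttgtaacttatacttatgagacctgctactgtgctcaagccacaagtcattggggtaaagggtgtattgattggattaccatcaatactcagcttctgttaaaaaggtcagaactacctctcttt
G6pc2: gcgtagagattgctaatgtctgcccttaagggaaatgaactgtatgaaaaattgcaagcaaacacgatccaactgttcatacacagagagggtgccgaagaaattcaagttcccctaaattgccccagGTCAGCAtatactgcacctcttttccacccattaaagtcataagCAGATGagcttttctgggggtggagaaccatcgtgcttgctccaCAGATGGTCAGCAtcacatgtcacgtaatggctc
Ucn3: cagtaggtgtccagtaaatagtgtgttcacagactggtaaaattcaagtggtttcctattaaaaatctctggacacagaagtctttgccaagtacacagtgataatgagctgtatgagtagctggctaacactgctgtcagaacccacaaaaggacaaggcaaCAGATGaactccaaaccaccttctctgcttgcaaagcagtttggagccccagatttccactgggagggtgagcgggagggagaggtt
Trpm5: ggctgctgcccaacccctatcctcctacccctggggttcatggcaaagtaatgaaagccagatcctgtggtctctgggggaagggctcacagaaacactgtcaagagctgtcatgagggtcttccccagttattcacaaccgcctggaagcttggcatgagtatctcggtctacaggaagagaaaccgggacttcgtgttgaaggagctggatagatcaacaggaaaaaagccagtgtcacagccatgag
Prlr: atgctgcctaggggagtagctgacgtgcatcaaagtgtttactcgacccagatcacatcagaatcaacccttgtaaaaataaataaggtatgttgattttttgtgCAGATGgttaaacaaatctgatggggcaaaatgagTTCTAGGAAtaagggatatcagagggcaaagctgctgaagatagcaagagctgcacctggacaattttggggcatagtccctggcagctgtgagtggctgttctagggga
They lie at chr3:28697653-28697902 (plus strand) for *Slc2a2*, chr2:69219699-69219948 (plus) for *G6pc2*, chr13:3945350-3945599 (minus) for *Ucn3*, chr7:143094643-143094892 (minus) for *Trpm5* and chr15:10223656-10223905 (plus) for *Prlr*. The *G6pc2* window held TGCTGAC 2 times and CATCTG 2 times, all on the reverse strand, and the second pair lay side by side, 34 and 28 bases before the start. The *Ucn3* window held CATCTG once, 87 bases before the start. The *Prlr* window held CATCTG 145 bases and the STAT letters 110 bases before the start, the latter as TTCTAGGAA. No match overlapped another, and the *Slc2a2* and *Trpm5* windows held none of these letters. Among 32851 windows of this length, TGCTGAC was found in 3.81%, CATCTG in 14.4% and TTCNNNGAA in 7.02%. The homeodomain letters were found in 4.84%, the HNF1 letters in 6.43%, the NF-κB core in 0.941% and the TATA box in 12.4%. The *G6pc2* and *Prlr* windows were picked for their matches, so that these shares cannot serve as a background for them. A match of letters is a description of the window and shows no binding.

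Per length of transcript, *G6pc2* was the most abundant of the 6 genes and *Trpm5* the least in every condition. On the scale of CPM per kilobase of exons (CPM/kb), control islets had 559 ± 13 for *G6pc2*, 212 ± 8.0 for *Ucn3*, 211 ± 9.3 for *Abcc8*, 90.0 ± 3.4 for *Slc2a2*, 16.7 ± 2.2 for *Prlr* and 13.1 ± 0.66 for *Trpm5*. *Ucn3* and *Abcc8* thus could not be ordered in control islets, whereas the other neighbours lay further apart than their spread. With IL-1β the order changed at this place only, as *Abcc8* had 242 ± 13 CPM/kb and *Ucn3* 94.5 ± 4.4. With the combination the levels of these 2 genes were 284 ± 17 and 86.3 ± 7.3 CPM/kb, and with butyrate alone 262 ± 12 and 174 ± 5.6. The lengths are the union of annotated exons in GENCODE M21, and a long annotated end such as that of *Prlr* (15339 exonic bases) lowers its level on this scale.

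**Figure D1:**
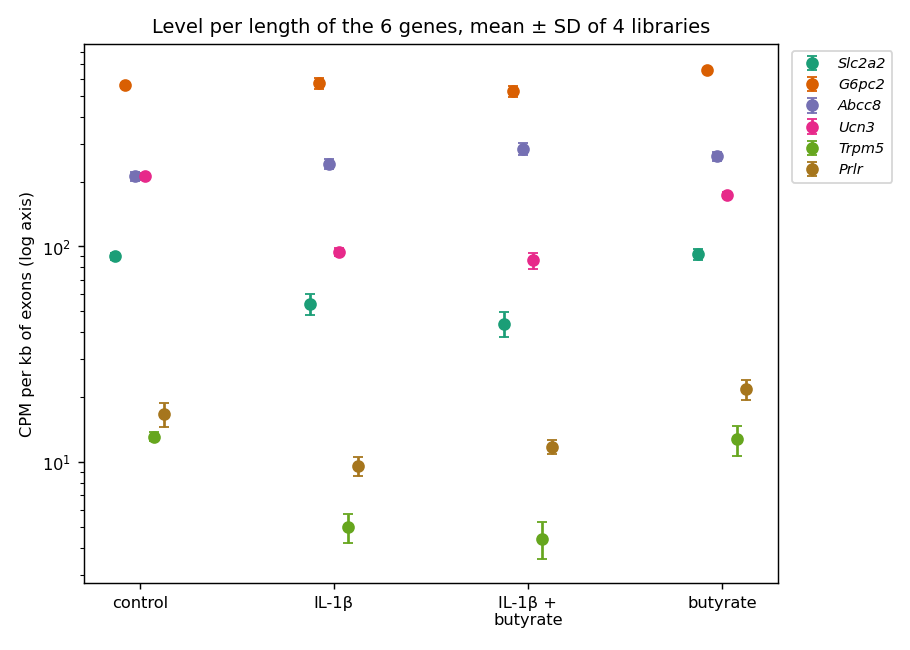
Level of the 6 genes per length in the 4 conditions, in CPM per kilobase of exons on a log axis, with points for the mean and bars for the SD of 4 libraries. *Ucn3* and *Abcc8* share a level in control islets (212 and 211) and lie apart with IL-1β (94.5 and 242).

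IL-1β lowered 4 of the 6 genes, *Trpm5*, *Ucn3*, *Prlr* and *Slc2a2*, raised *Abcc8* slightly and left *G6pc2* without a call. A gene was called at an edgeR FDR under 0.01, the Benjamini-Hochberg adjusted p of edgeR's quasi-likelihood test over 18587 genes. Against this count of 4 lowered and 1 raised, 6.59% of all genes tested were lowered and 11.2% raised. The median log2 fold change was -0.77 over the 6 genes and -0.03 over all genes. The 6 genes were chosen with earlier results of these data known, so that such counts are a description and no test. In control islets their levels per length lay at percentiles 82.9 to 99.9 of the genes tested, and all genes are thus no matched background. Butyrate in the presence of IL-1β raised 1 of the 6, *Abcc8*, and lowered none, where 8.41% of all genes were raised and 11.1% lowered, with medians of -0.13 and 0.01. The 4 genes that IL-1β lowered stayed without a call in this comparison, although *Slc2a2* was called (lower) in 4 and *Prlr* (higher) in 3 of 14 alternatives. For both genes, a model with a term for the replicate number was among these alternatives. Butyrate alone raised *Abcc8*, *Prlr* and *G6pc2* and lowered *Ucn3*, against 8.53% of all genes raised and 11.4% lowered, with medians of 0.13 and 0.01.

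In the combination against control, the same calls stood as with IL-1β alone, 4 lowered and 1 raised, where 14.8% of all genes were lowered and 15.8% raised. In the combination against butyrate, which gives the IL-1β effect in the presence of butyrate, 5 of the 6 genes were lowered and none raised, against 4.86% of all genes lowered and 9.92% raised. *G6pc2* was the added lowered gene, and the medians were -0.95 over the 6 genes and -0.01 over all genes. The interaction of both agents, which is the butyrate effect with IL-1β minus that in its absence, was called for 0 of the 6 genes by edgeR, with 3 of them at an unadjusted p under 0.05, and for 0.0968% of all genes (18 genes, with 1362 at an unadjusted p under 0.05). DESeq2 called it for 1 of the 6, *G6pc2*. The comparisons share libraries, so that their values are not independent of each other.

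**Figure D2:**
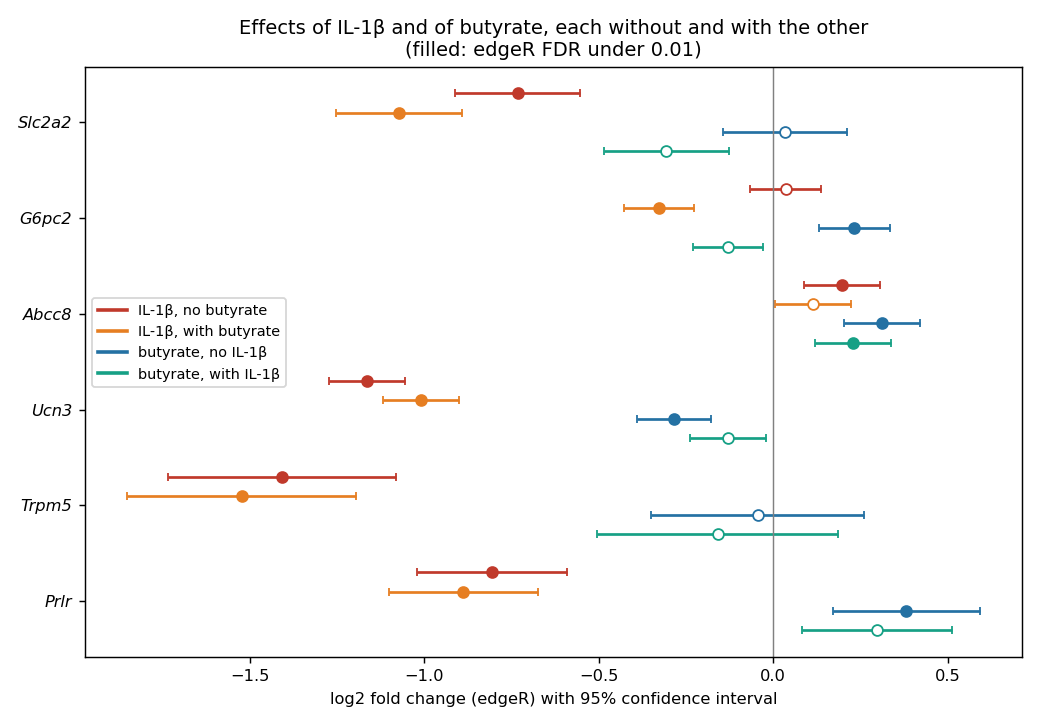
Log2 fold changes of the 6 genes (horizontal axis, edgeR, bars for the 95% confidence interval) for IL-1β without and with butyrate and for butyrate without and with IL-1β, with filled points at an edgeR FDR under 0.01. *Trpm5*, *Ucn3*, *Prlr* and *Slc2a2* have both IL-1β effects to the left of 0, and *G6pc2* has only the one in the presence of butyrate there (-0.33).

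*Slc2a2* (ENSMUSG00000027690, chr3:28697903-28731359, plus strand), the glucose transporter gene, fell by 39.8% with IL-1β and had its lowest values in the combination. Control libraries had 526, 494, 539 and 513 CPM and those with IL-1β 302, 291, 363 and 292 CPM. Libraries with the combination had 258, 255, 289 and 206 CPM and those with butyrate 552, 561, 493 and 515 CPM. Every library with IL-1β lay below every library without it, and the libraries with both agents lay below all of those with IL-1β alone. The log2 fold change with IL-1β was -0.73 (edgeR FDR = 2.6e-06, SE 0.08). In the combination against IL-1β it was -0.31 (SE 0.09), which missed the threshold (edgeR FDR = 0.011) but was called in 4 of 14 alternatives. Among these were DESeq2 and the fit without combination replicate 3 (-0.39, edgeR FDR = 0.00089). The change was smallest, at -0.24, without IL-1β replicate 3 (edgeR FDR = 0.020), the library with 363 CPM, or without combination replicate 4 (edgeR FDR = 0.012). Butyrate alone gave 0.03 (edgeR FDR = 0.81, SE 0.08), with a 95% confidence interval from -0.14 to 0.21. In whole islets, a lower level through fewer beta cells and one through less transcript per beta cell cannot be told apart, here or for the other lowered genes.

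Other genes of glucose uptake and of the making and use of glucose 6-phosphate moved in both directions with IL-1β. Of 18 listed genes, 16 were tested, and IL-1β lowered 4, *Slc2a2* included, and raised 3, with a median log2 fold change of 0.05. Of all genes tested, 6.59% were lowered and 11.2% raised. The abundant transporter gene *Slc2a5* had 266 ± 7.6 CPM in control islets and 229 ± 16 with IL-1β. It had 199 ± 7.0 CPM with the combination and 213 ± 11 with butyrate. The transporter gene *Slc2a1* (GLUT1) had 10.9 ± 0.45 CPM in control islets and 11.4 ± 2.6 with IL-1β (log2 fold change 0.06, edgeR FDR = 0.73), and *Slc2a3* (GLUT3) had 2.60 ± 0.29 and 3.13 ± 0.66 CPM (0.28, edgeR FDR = 0.29). Per length, *Slc2a2* exceeded *Slc2a1* 29.0-fold in control islets, 17.2-fold with IL-1β, 16.2-fold with the combination and 29.1-fold with butyrate. *Hk1*, a hexokinase of low abundance in islets, fell by 0.64 (edgeR FDR = 0.0014, SE 0.14), while *Hkdc1*, a hexokinase-like gene, rose by 1.49 (edgeR FDR = 0.0059, SE 0.40). *Hkdc1* was at the limit of counting, with 1 to 5 counts per control library and 7 to 17 with IL-1β. *Pfkp*, a phosphofructokinase subunit, rose by 1.03 (edgeR FDR = 2.6e-09, SE 0.08) from 29.2 ± 2.2 to 59.4 ± 5.4 CPM.

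*G6pc2* (ENSMUSG00000005232, chr2:69211073-69227841, plus strand) was the one gene of the 6 with no call in IL-1β against control. Its 4 control libraries had 1139, 1105, 1077 and 1094 CPM and its 4 libraries with IL-1β 1161, 1166, 1164 and 1034 CPM. With the combination it had 986, 1117, 1051 and 984 CPM and with butyrate 1295, 1317, 1263 and 1315 CPM. The butyrate libraries lay above all 12 others, and the other 3 conditions overlapped. The log2 fold change was 0.04 with IL-1β (edgeR FDR = 0.65, SE 0.05), with a 95% confidence interval from -0.07 to 0.14, and 0.23 with butyrate (edgeR FDR = 0.00059, SE 0.05), a rise of 17.5%. In the presence of butyrate, IL-1β lowered *G6pc2* by 20.2% (log2 fold change -0.33, edgeR FDR = 1.0e-05, SE 0.05). In the combination against IL-1β the log2 fold change was -0.13 (edgeR FDR = 0.048, SE 0.05), and it was past the threshold without IL-1β replicate 4 (-0.19, edgeR FDR = 0.0034) or without combination replicate 2 (-0.18, edgeR FDR = 0.0065). The butyrate effect with IL-1β minus that without it was -0.36 (SE 0.07). This difference missed the threshold (edgeR FDR = 0.017) but was called in 6 of 21 alternatives (adjusted p between 1.6e-05 and 0.061), among them those without IL-1β replicate 4 (edgeR FDR = 0.0019) and without combination replicate 2 (edgeR FDR = 0.0034).

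The ubiquitous relative *G6pc3* stayed without a call, with 45.4 ± 1.8 CPM in control islets and 45.3 ± 2.4 with IL-1β (edgeR FDR = 0.998) and 48.3 ± 1.9 with butyrate (edgeR FDR = 0.21). Per length, *G6pc2* exceeded it 27.5-fold in control islets and 30.3-fold with butyrate. *Slc37a4*, the transporter that brings glucose 6-phosphate to the phosphatase in the endoplasmic reticulum, was lowered in all 5 comparisons between conditions, by 0.21 on the log2 scale with IL-1β (edgeR FDR = 0.0029, SE 0.05) and by 0.32 with butyrate in its presence (edgeR FDR = 2.3e-05, SE 0.05). Its level went from 78.4 ± 2.1 CPM in control islets to 54.4 ± 2.8 with both agents.

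*Abcc8* (ENSMUSG00000040136, chr7:46104523-46180033, minus strand), the SUR1 subunit, was higher in each of the 3 treated conditions than in control islets. Control libraries had 1815, 1658, 1717 and 1653 CPM, and those with IL-1β 2081, 1855, 1889 and 2015 CPM. With the combination the values were 2490, 2155, 2248 and 2301 CPM, and with butyrate 2109, 2159, 1997 and 2228 CPM. Control libraries lay below all others, and those with both agents above all with IL-1β alone. Its log2 fold changes were 0.31 with butyrate (edgeR FDR = 4.8e-05, SE 0.05), 0.43 with the combination (edgeR FDR = 2.3e-07, SE 0.05) and 0.20 with IL-1β (edgeR FDR = 0.0059, SE 0.05), each against control. In the combination against IL-1β it was 0.23 (edgeR FDR = 0.0015, SE 0.05).

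The rise of *Abcc8* with IL-1β was near the threshold, since it was not called in 6 of 14 alternatives, in which adjusted p reached 0.027: upper-quartile scaling, a fit to the 8 libraries compared, and the fits without control replicate 2, 3 or 4 or without IL-1β replicate 1. The rise that butyrate gave on top of IL-1β lost its call without IL-1β replicate 3 (edgeR FDR = 0.011) or combination replicate 1 (edgeR FDR = 0.016).

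The partner of SUR1 in the channel moved otherwise. *Kcnj11*, which encodes the pore Kir6.2, had 141 ± 2.5 CPM in the control, 117 ± 4.9 with IL-1β, 136 ± 8.1 with both agents and 149.7 ± 3.7 with butyrate. IL-1β lowered it by 0.27 on the log2 scale (edgeR FDR = 4.3e-05, SE 0.05), and butyrate in the presence of IL-1β raised it by 0.22 (edgeR FDR = 0.00061, SE 0.05). The ratio of *Abcc8* to *Kcnj11* per length was 5.50 ± 0.15 in the control, 7.62 ± 0.24 with IL-1β, 7.69 ± 0.40 with both agents and 6.44 ± 0.17 with butyrate, and only the ratios with IL-1β and with both agents overlapped. The other sulfonylurea receptor, *Abcc9* (SUR2), fell by 0.59 with IL-1β (edgeR FDR = 0.0079, SE 0.17) and by 1.09 with butyrate (edgeR FDR = 2.4e-05, SE 0.18), from 2.91 ± 0.20 CPM in control islets. *Kcnj8* was at 0.450 ± 0.20 CPM in control islets. Of the 10 listed genes of the KATP channel and of calcium entry, all were tested, and IL-1β raised 2 and lowered 2. *Abcc8* was among the raised, and *Kcnj11* and *Abcc9* were the lowered genes. IL-1β raised 11.2% and lowered 6.59% of all genes tested. Butyrate in the presence of IL-1β raised *Abcc8* and *Kcnj11* and lowered *Abcc9* on this list.

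**Figure D3:**
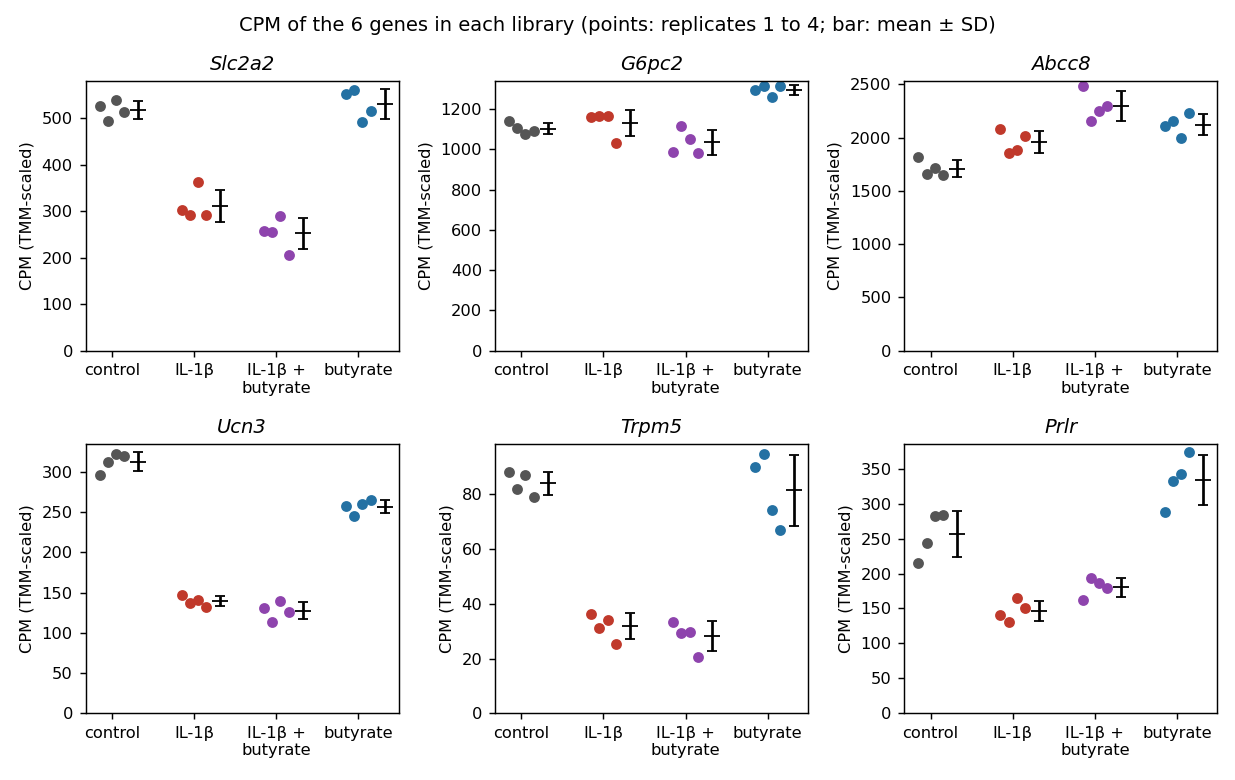
CPM of each of the 6 genes in all 16 libraries (vertical axes, from 0), with 1 point per library and the mean ± SD of 4 libraries beside the points. The libraries with IL-1β and with the combination sit below all others for *Slc2a2*, *Ucn3*, *Trpm5* and *Prlr*, but not for *G6pc2* and *Abcc8*.

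*Ucn3* (ENSMUSG00000044988, chr13:3940688-3945349, minus strand), the maturity marker, was lowered by each agent against control. Its 4 control libraries had 296, 312.5, 323 and 319 CPM and those with butyrate 257, 245, 259.9 and 265 CPM. With IL-1β the libraries had 148, 137, 141 and 133 CPM and with both agents 131, 114, 139 and 126 CPM. Control, butyrate and the IL-1β conditions formed 3 levels with no overlap between them, and the libraries with IL-1β and with both agents overlapped. Butyrate alone lowered *Ucn3* by 17.9% (log2 fold change -0.28, edgeR FDR = 0.00011, SE 0.05). In the presence of butyrate, IL-1β lowered it by 50.3% (log2 fold change -1.01, edgeR FDR = 2.1e-14, SE 0.05), whereas without butyrate it fell by 55.4%. The difference between these effects, 0.15 on the log2 scale (SE 0.07), was not called (edgeR FDR = 0.68).

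Of the urocortin and CRH system, *Ucn3* was the one ligand with enough counts to be tested. *Ucn* had at most 1 count per library, *Ucn2* at most 6 and *Crh* at most 2, and they were not tested. *Crhr2*, the receptor of urocortin 3 on delta cells, had 2.22 ± 0.64 CPM in control islets and 1.77 ± 0.14 with IL-1β (log2 fold change -0.32, edgeR FDR = 0.27), and butyrate raised it to 3.77 ± 0.70 CPM (0.76, edgeR FDR = 0.0023, SE 0.18). IL-1β lowered 1 of the 4 tested genes of this list, *Ucn3* itself, and raised none, where 6.59% of all genes were lowered and 11.2% raised.

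*Trpm5* (ENSMUSG00000009246, chr7:143069153-143094642, minus strand) had the largest fall of the 6 genes with IL-1β. Control libraries had 87.8, 82.0, 86.9 and 78.9 CPM (1818 to 1966 counts), and those with IL-1β 36.4, 31.3, 34.2 and 25.3 CPM (642 to 704 counts). With the combination it had 33.3, 29.4, 29.6 and 20.4 CPM and with butyrate 89.8, 94.6, 74.0 and 67.0 CPM. The libraries with and without IL-1β lay far apart, whereas within each pair butyrate left the values overlapping and, without IL-1β, more widely spread. The log2 fold change with IL-1β was -1.41 (edgeR FDR = 9.1e-06, SE 0.15), so that it fell by 62.3%, and -1.52 in the presence of butyrate (edgeR FDR = 5.3e-06, SE 0.15). Butyrate gave -0.04 without IL-1β (edgeR FDR = 0.86, SE 0.14, 95% confidence interval from -0.35 to 0.26) and -0.16 with it (edgeR FDR = 0.50, SE 0.16, from -0.50 to 0.19). Of its 6398 exonic bases, 220 are shared with *Tssc4* on the opposite strand, and the strand setting of the counting is not given in the sources used here. *Tssc4* had 108 ± 5.5 CPM in control islets and 114 ± 6.6 with IL-1β.

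Among the 8 TRPM channel genes, all tested, IL-1β lowered *Trpm5* and *Trpm7*, the latter by 0.19 on the log2 scale (edgeR FDR = 0.0017, SE 0.05), and raised none. The shares over all genes tested were 6.59% lowered and 11.2% raised. The nearest relative *Trpm4*, also a calcium-activated cation channel, had 12.6 ± 1.1 CPM in control islets and 13.9 ± 0.65 with IL-1β (log2 fold change 0.13, edgeR FDR = 0.19). Butyrate raised *Trpm4* by 0.53 both without IL-1β (edgeR FDR = 1.6e-06, SE 0.07) and with it (edgeR FDR = 1.2e-06, SE 0.07). *Trpm2*, which also takes part in insulin release, had 40.1 ± 4.1 CPM in control islets and 48.4 ± 3.6 with IL-1β (0.27, edgeR FDR = 0.027). Per length, the ratio of *Trpm5* to *Trpm4* went from 11.3 ± 1.4 in the control to 3.88 ± 0.59 with IL-1β and 2.38 ± 0.44 with both agents, and lay from 6.54 to 8.21 with butyrate, with no overlap between the conditions. The ratio of *Trpm5* to *Trpm2* went from 4.09 ± 0.33 to 1.28 ± 0.21 with IL-1β, so that in 1 of these 4 libraries *Trpm2* had the higher level per length.

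*Prlr* (ENSMUSG00000005268, chr15:10177238-10349180, plus strand) fell with IL-1β and rose with butyrate alone. Control libraries had 215, 244, 283 and 283 CPM and those with IL-1β 141, 130, 164 and 151 CPM. With the combination the values were 162, 194, 186 and 179 CPM and with butyrate 288, 332, 342 and 373 CPM. The butyrate libraries lay above all others and the IL-1β libraries overlapped only with those that held both agents, whose lowest value was below the highest with IL-1β. The log2 fold change was -0.81 with IL-1β (edgeR FDR = 1.6e-05, SE 0.10), -0.89 with IL-1β in the presence of butyrate (edgeR FDR = 6.5e-06, SE 0.10) and -0.51 in the combination against control (edgeR FDR = 0.00069, SE 0.10). In the combination against IL-1β it was 0.30 (edgeR FDR = 0.036, SE 0.10), opposite in sign to the IL-1β effect. This change was called in 3 of 14 alternatives, DESeq2 among them (adjusted p = 0.0055). Both comparisons use the IL-1β libraries, and butyrate alone gave a rise as well (0.38). *Slc2a2*, *Ucn3* and *Trpm5* kept the sign of their IL-1β effect in the combination against IL-1β (-0.31, -0.13 and -0.16, none called).

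Butyrate alone raised *Prlr* by 30.2% (log2 fold change 0.38, edgeR FDR = 0.0084, SE 0.10), and was not called in 7 of 14 alternatives, in which adjusted p reached 0.049. They were no filter on low counts, a fit to the 8 libraries compared, and the fits without control replicate 1 or 2 or without butyrate replicate 2, 3 or 4. The annotation places 203 of the 15339 exonic bases of *Prlr* in *Gm21973* too, which had 0 counts in all libraries.

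Around the receptor, 14 genes of its pathway were tested, of which IL-1β lowered 2, *Prlr* and *Ccnd2*, and raised 4. The shares over all genes tested were 6.59% lowered and 11.2% raised. The closest relative *Ghr*, the growth hormone receptor, had 235 ± 9.5 CPM in the control, 242 ± 7.5 with IL-1β and 228 ± 7.6 with butyrate, without a call in any comparison. *Ccnd2*, a cyclin of beta cell proliferation, fell by 0.44 on the log2 scale with IL-1β (edgeR FDR = 2.4e-05, SE 0.07). The tryptophan hydroxylase genes, which make serotonin and rise with prolactin in pregnancy, were higher with IL-1β: *Tph2* by 2.19 (edgeR FDR = 2.3e-10, SE 0.18, from 0.994 ± 0.26 to 4.58 ± 0.41 CPM), and *Tph1*, a gene at the limit of counting, with 9 to 16 counts per library against 0 to 3 in control islets. *Tnfrsf11b* (osteoprotegerin) rose by 3.34 (edgeR FDR = 3.0e-07, SE 0.27), from 1.65 ± 0.36 to 16.7 ± 4.1 CPM. Butyrate alone raised *Socs2*, a feedback inhibitor of the pathway, by 0.70 (edgeR FDR = 2.7e-06, SE 0.10) and *Stat5b* by 0.18 (edgeR FDR = 0.0065, SE 0.05), and lowered *Jak2* by 0.37 (edgeR FDR = 2.2e-06, SE 0.05).

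**Figure D4:**
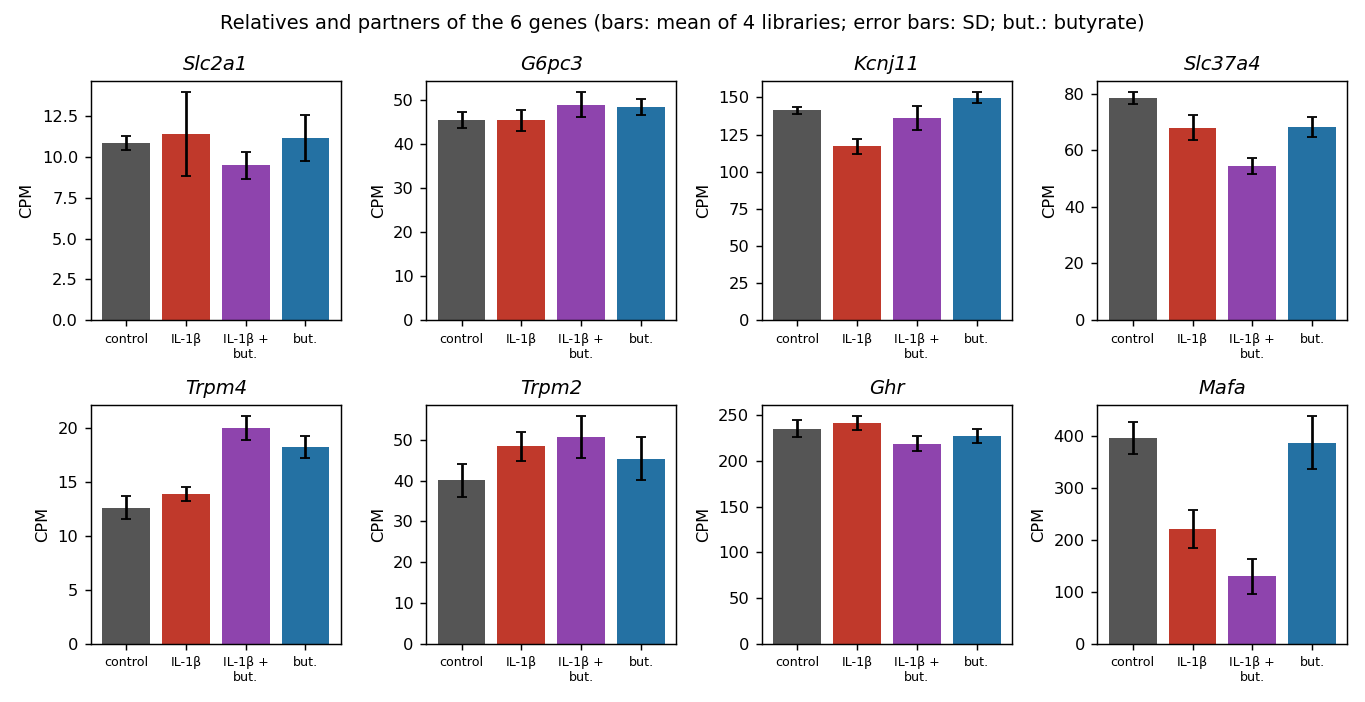
CPM of 8 relatives and partners of the 6 genes (vertical axes, from 0) in the 4 conditions, with bars for the mean and error bars for the SD of 4 libraries. *Kcnj11* is lowest with IL-1β (117 CPM), *Trpm4* lowest in control islets (12.6 CPM), and *Slc2a1* and *Ghr* have no call with IL-1β.

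Read within each library, against the counts of *G6pc2* that came from the same RNA, the 4 genes that IL-1β lowered were lower too. Per 100 counts of *G6pc2*, *Slc2a2* had 46.9 ± 2.3 counts in control islets and 27.6 ± 2.8 with IL-1β, *Ucn3* 28.4 ± 1.7 and 12.4 ± 0.51, *Trpm5* 7.60 ± 0.37 and 2.80 ± 0.30, and *Prlr* 18.8 to 26.3 and 11.2 to 14.6 (lowest and highest). *Abcc8* went the other way, from 155 ± 5.1 to 174 ± 17. These ratios do not depend on the scaling of the libraries, and for each of the 4 lowered genes the ranges with and without IL-1β did not overlap. How many of all genes have no overlap was not counted. The 4 genes were called lower from the same counts, and *G6pc2* had no call with IL-1β. The ratios thus restate the CPM values and are no separate test of them. With butyrate alone, *Slc2a2* had 40.8 ± 2.0 and *Ucn3* 19.8 ± 0.83 counts per 100 of *G6pc2*, both below control, where the rise of *G6pc2* itself is part of the ratio. With both agents *Abcc8* had 223 ± 26 and *Prlr* 17.4 ± 0.74. The change of *G6pc2* in the combination against IL-1β (log2 fold change -0.13, not called) is part of these ratios. Per 100 counts of *Abcc8*, itself raised in that comparison, *Prlr* had 7.49 ± 0.85 counts with IL-1β and 7.89 ± 1.0 with both agents, and these overlapped.

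**Figure D5:**
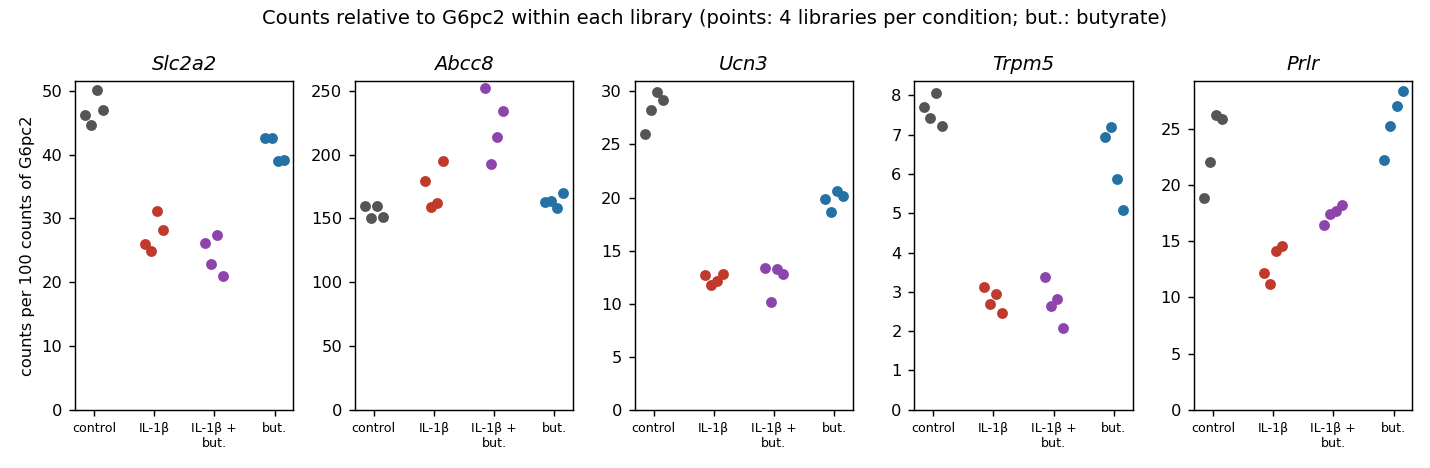
Counts of 5 genes per 100 counts of *G6pc2* in the same library (vertical axes, from 0), with 1 point per library. The points with IL-1β lie below all control points for *Slc2a2*, *Ucn3*, *Trpm5* and *Prlr* (for the first 3, means of 27.6, 12.4 and 2.80), whereas those of *Abcc8* reach above them (mean 174).

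The genes most like each of the 6 over the 16 libraries were found by the root mean square (RMS) difference of their centred log2 CPM, among tested genes whose condition means ranged over at least 0.5 on this scale, as a description without a test. For *Slc2a2* they were *Slc30a8*, the zinc transporter of insulin granules (RMS 0.156), *Hs3st6* (0.164) and *Prss53* (0.167). *Slc30a8* had 718 ± 47 CPM in control islets and 438 ± 37 with IL-1β, a log2 fold change of -0.71 (edgeR FDR = 8.1e-09, SE 0.07). For *Ucn3* they were *Sfrp5* (0.147), *Egflam* (0.153) and *Vipr1* (0.171), and for *Trpm5* they included *Ppp1r1a* (0.204) and *Mafa* (0.268). *Ppp1r1a*, a phosphatase inhibitor abundant in beta cells, had mean levels of 199.6 CPM in control islets and 92.0 with IL-1β. For *Prlr* they were *Gria2* (0.143), *Bag2* (0.145) and *Gm30648* (0.165), for *Abcc8* *Mpp2*, *B4galt6* (both 0.0841) and *Myo5b* (0.0849), and for *G6pc2* *Tigar* (0.140), *Gpr45* (0.141) and *Klhl32* (0.144). *G6pc2* and *Abcc8* themselves ranged over 0.33 and 0.43, less than any gene they were compared with.

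Beyond the 6 genes, the genes of the beta cell maturity list went in both directions. With the 6 included, IL-1β lowered 13 of 25 and raised 7, with a median log2 fold change of -0.21, and butyrate in its presence lowered 5 and raised 2. The largest other falls with IL-1β were those of *Mafa*, a transcription factor of mature beta cells (-0.84, edgeR FDR = 0.0034, SE 0.18), *Ero1b*, an oxidase of proinsulin folding (-0.78, edgeR FDR = 6.9e-06, SE 0.10), and *Ins2* (-0.72, edgeR FDR = 2.3e-07, SE 0.08). The prohormone convertase *Pcsk1*, which cuts proinsulin, rose by 0.72 (edgeR FDR = 8.6e-10, SE 0.06). The 8 genes used as beta cell markers, none of them among the 6, fell in sum from 215274 to 238130 CPM per control library to 137805 to 179551 with IL-1β, with 7 lowered and 1 raised (*Iapp*). Their sum was 138264 to 170683 CPM with both agents and 224174 to 263617 with butyrate. Most of each sum came from the insulin genes, so that it mainly reads insulin transcripts. *Ins2* had 145137 ± 7863 CPM in the control and 88046 ± 10813 with IL-1β, and *Ins1* had 51508 ± 3029 and 42914 ± 3765. The part of these moves in the results for *Slc2a2*, *Ucn3*, *Trpm5* and *Prlr* was not tested.

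The 9 macrophage markers had a summed level of 130 to 143 CPM in the control and 186 to 234 with IL-1β, with 8 raised and 1 lowered. The lowered gene, *C1qa*, held most of the control sum, with 111 ± 11 CPM in the control and 79.7 ± 12 with IL-1β. The median log2 fold change over the 9 was 2.25, so that the sum shows less of a rise than most of its genes. The sum of the 5 delta cell markers was 2181 to 2458 CPM in the control, 3591 to 4261 with IL-1β and 5230 to 5801 with both agents. With IL-1β 1 of the 5 was raised, *Pdyn* (prodynorphin), from 514 ± 56 to 1920 ± 109 CPM, and 4 were not called, *Sst* (0.07, edgeR FDR = 0.57) among them, with a median log2 fold change of 0.07 over the 5. Butyrate in the presence of IL-1β raised *Sst* (0.61, edgeR FDR = 1.0e-05, SE 0.08) and *Pdyn* (0.49, edgeR FDR = 0.0018, SE 0.10). The 7 alpha cell markers summed to 21189 to 24371 CPM in the control and 20365 to 25906 with IL-1β, with 2 lowered, and the 3 PP cell markers to 2238 to 3053 and 1826 to 2396, with 1 lowered. The 6 duct markers went from 341 to 368 CPM in the control to 502 to 600.4 with IL-1β, with 3 of 5 tested raised. Most of this rise was in *Spp1* (osteopontin), from 11.9 ± 2.7 to 158 ± 46 CPM, and *Krt7*, from 336 ± 13 to 394 ± 28, whereas *Sox9* had 2.04 ± 0.30 and 1.81 ± 0.38 CPM. The acinar, endothelial and fibroblast markers had sums of 30.1 CPM at most in either condition. Of these lists, *Cftr* (duct), *Tie1* (endothelial), *Cel*, *Pnlip* and *Amy2a5* (acinar) were near 0 and not tested. The part of these cell types in the results for the 6 genes was not tested.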

How the data were processed

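Single-end RNA-seq libraries (NEBNext Ultra II) were prepared from total islet RNA. The submitters' processing notes name bcl2fastq 2.19.1, FastQC 0.11.7, MultiQC 1.7, STAR 2.5.3a and DESeq2, with the mouse genome GRCm38. The deposited values are counts of reads per gene, whole numbers that the authors did not normalize, and the annotation release, strand setting and read filters are not given in the sources used here. Of 52636 genes, 10560 had no count, and 52489 identifiers were found in GENCODE M21, which gave symbols, positions and exon lengths. The table had 0 columns of other samples.

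The members and all gene lists were chosen with earlier results of these data known, and the lists were written from general knowledge. In R 4.3.3, edgeR 4.0.16 filtered low counts (filterByExpr, 18587 genes left), scaled by TMM and fitted 1 robust quasi-likelihood model with the 4 conditions to all 16 libraries. Calls rest on an edgeR FDR (p adjusted by Benjamini-Hochberg) under 0.01, the threshold of the study. Named were the 6 genes, their near relatives, up to 4 other genes per list and comparison with the largest called changes, and for each of the 6 the 3 most similar genes. Some results are not reported here. *Slc37a4*, *Trpm7*, *Crhr2*, *Stat5b* and the other list genes named follow this rule. *Sst*, *Pdyn*, *Spp1*, *Krt7*, *Sox9*, *C1qa*, *Ins1* and *Iapp* are members of marker lists, named after their values were seen. The same holds for *Slc2a5* of the glucose uptake list. Ratios per length divide CPM by the union of annotated exons.

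Replicates of a condition differed by more than counting error (chi-square per gene 1.72 to 13.5), and p-values measure the spread between these islet preparations, which may be technical. The reads carried no molecular identifiers, so counting error alone understates the error. Alternatives were DESeq2 1.42.0, its size factors, upper-quartile scaling, no filter, only the libraries compared, the replicate number as a block and leaving out each library. The pipeline was tested on simulated data. Promoter windows came from RefSeq (GRCm38.p6), with no entry for *Abcc8*.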

Additional observations from a re-analysis of the deposited data

Results flagged for a closer look

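Of 24 sets of 4 libraries, 1 for each of the 6 genes in each condition, 2 held a library far from the other 3, by a gap to the nearest library over the whole range above Dixon's 95% critical value for 4 samples. Chance alone sets off this rule in about 1 of 20 sets. *Slc2a2* had 363 CPM in IL-1β replicate 3, where the next highest library had 302 CPM (gap over range 0.851). *G6pc2* had 1034 CPM in IL-1β replicate 4, where the next lowest had 1161 CPM (gap over range 0.964). Both bear on the comparison of the combination with IL-1β. There the log2 fold change of *Slc2a2* was -0.31 with its flagged library and -0.24 (edgeR FDR = 0.020) without it. That of *G6pc2* was -0.13 with its flagged library and -0.19 (edgeR FDR = 0.0034) without it.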

How the results depend on the processing

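Of 546 recomputed values of the 6 genes, 514 kept direction and side of the threshold, 15 lost and 15 gained a call and 2 changed sign. No cause was tested. With upper-quartile scaling, *Abcc8* with IL-1β (0.16) lost its call, the difference between the butyrate effects for *G6pc2* (-0.36) gained one, *Trpm5* with butyrate changed sign to 0.00678, and 1420 genes were lowered in the combination against butyrate, against 903. This scaling also moved the share of raised genes among those called from 63.0% to 51.5% with IL-1β, from 43.1% to 57.7% with butyrate in its presence, from 42.9% to 58.5% with butyrate alone and from 67.1% to 53.2% in the combination against butyrate. Without a filter on low counts, *Slc2a2* in the combination against IL-1β (-0.31) and the *G6pc2* difference (-0.35) gained a call and *Prlr* with butyrate (0.36) lost it, and 95 genes had a called difference, against 18. With DESeq2, *Slc2a2* (-0.31) and *Prlr* (0.30) in the combination against IL-1β and the *G6pc2* difference (-0.37) gained calls, and 52 genes had a called difference. In fits to the libraries compared, *Abcc8* with IL-1β (0.20) and *Prlr* with butyrate (0.39) lost their calls and *Prlr* in the combination against IL-1β (0.30) gained one.

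The labels do not say whether the replicate number marks a shared experiment. Sample numbers in the column names run through the 4 conditions of 1 replicate number before the next. The correlation of same-numbered libraries in their deviations from the condition means was from 0.053 to 0.397, over 0.1 in 17 of 24 pairs. Its median was 0.118, against -0.040 for pairs of different number. On average, 14 of 16 libraries correlated best with those of their own number. With the replicate number as a block, *Prlr* (0.30) and *Slc2a2* (-0.31) in the combination against IL-1β and the *G6pc2* difference (-0.36) gained calls, 1951 genes were lowered with IL-1β against 1224, 1407 in the combination against butyrate, and 132 had a called difference. Leaving out each library in turn gave *Abcc8* 0.18 to 0.23 with IL-1β and 0.17 to 0.24 with butyrate in its presence. In that comparison *G6pc2* had -0.19 to -0.12 and *Slc2a2* -0.39 to -0.24. With butyrate alone *Prlr* had 0.30 to 0.44 and *Trpm5* -0.13 to 0.039, the highest without butyrate replicate 4. The *G6pc2* difference was -0.42 to -0.35, and 11 to 25 genes had a called difference (11 without butyrate replicate 1). With 4 libraries per condition, the SE of a log2 fold change between conditions was 0.05 to 0.16 over the 6 genes, so that the size that could be called differed from gene to gene.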
